A study of Homo sapiens with 24 samples.

Results

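The p53 family members TP63 and TP73 and 5 well-known p53 target genes, CDKN1A, MDM2, SFN, GADD45A and BBC3, were examined for chromatin association of the calcium-binding cytokines S100A8 and S100A9. The 7 genes were taken by name out of 20098 protein-coding genes of chromosomes 1 to 22 and X. The cells were MCF-10A, a nontransformed human breast epithelial line, carrying ER-Src, in which the v-Src oncoprotein is fused to the ligand-binding domain of estrogen receptor. Stable derivatives made with a retroviral vector expressed S100A8-Flag or S100A9-Flag, and all libraries used here carry both ER-Src and one of these tagged proteins. Cells received 1 μM 4-hydroxytamoxifen (TAM), which activates v-Src, or its vehicle ethanol (EtOH) for 24 hours, and tagged protein was immunoprecipitated with anti-Flag after dual cross-linking. There were 2 libraries of S100A8 EtOH, 3 of S100A8 TAM, 3 of S100A9 EtOH and 3 of S100A9 TAM, each with its own peak list. The methods of the study call the replicates biological without describing how they were made, and p-values measure only the spread between these libraries.

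A peak was used when its q-value was at most 1e-07, and it was assigned to a gene when its summit lay in the gene body or within 50 kb of it. Read depth is unknown, and the length of the peak list is the only measure of how much each library called. The S100A8 EtOH lists held 4327 and 4609 such peaks, and the S100A9 EtOH lists held 3595, 1853 and 4596. The S100A8 TAM lists held 29381, 24117 and 21518 peaks, and the S100A9 TAM lists held 25494, 23994 and 40735. Every TAM list was thus longer than every EtOH list, and this difference stands beside each comparison of the treatments given here.

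p53 is a transcription factor that is stabilised after DNA damage and other stress and then raises transcription of genes that stop the cell cycle, aid DNA repair or start apoptosis. Its paralogs TP63 and TP73 recognise closely related DNA elements. TP63, in the form that lacks the amino-terminal transactivation domain, is characteristic of basal epithelial cells, including those of the breast. Among the target genes, CDKN1A encodes the cyclin-dependent kinase inhibitor p21, and SFN encodes 14-3-3 sigma, an epithelial 14-3-3 protein that restrains entry into mitosis. GADD45A encodes a growth arrest and DNA damage protein, BBC3 encodes the proapoptotic BH3-only protein PUMA, and MDM2 encodes the ubiquitin ligase that limits p53 itself.

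Sites were merged from peaks present in at least 2 replicates of a condition, and 41 of the 30322 sites of the whole series had their summit at 1 of the 7 genes. The first sequences of 101 bases are shown because they hold the letters of a p53 element or lie in the gene body of TP63, and the later ones because they lie at promoters (1500 bp upstream to 250 bp downstream of a transcription start site). The TP63 pair was chosen after its values were seen. All are from the plus strand of hg19, and capitals mark the matches named in the next sentences. In the GADD45A intron, chr1:68152437-68152537, the capitals mark a p53 element, an ETS match and an AP-1 match, in that order. At the site upstream of CDKN1A, chr6:36634959-36635059, in intergenic sequence, they mark a p53 element. In the TP63 introns they mark a p53 half-site at chr3:189551897-189551997 and an AP-1 match at chr3:189428479-189428579.
GADD45A intron: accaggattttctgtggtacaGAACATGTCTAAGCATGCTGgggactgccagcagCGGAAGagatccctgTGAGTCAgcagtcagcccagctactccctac
CDKN1A upstream: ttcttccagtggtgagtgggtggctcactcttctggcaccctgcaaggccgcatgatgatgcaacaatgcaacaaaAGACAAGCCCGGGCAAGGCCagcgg
TP63 intron, p53 half-site: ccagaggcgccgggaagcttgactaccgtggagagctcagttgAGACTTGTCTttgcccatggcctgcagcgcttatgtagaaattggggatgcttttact
TP63 intron, AP-1: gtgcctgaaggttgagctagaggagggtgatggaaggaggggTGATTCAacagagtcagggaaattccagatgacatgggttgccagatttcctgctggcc

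Among the promoter sequences, the CDKN1A and GADD45A windows were moved upstream of the summit, since the summits themselves lay in untranslated exon sequence. The TP73 window, chr1:3607087-3607187, and the CDKN1A window, chr6:36646386-36646486, each hold a KLF/SP1 match in capitals. The GADD45A window, chr1:68150783-68150883, holds an ETS match. The downstream MDM2 window, chr12:69202565-69202665, lies in an MDM2 intron just before an internal start site of the gene and holds none of the motifs searched. The site itself has an AP-1 match 67 bp from the summit used, past the end of this window. In the other TAM libraries that called the site, the summits also lay past the end of the window.
TP73 promoter: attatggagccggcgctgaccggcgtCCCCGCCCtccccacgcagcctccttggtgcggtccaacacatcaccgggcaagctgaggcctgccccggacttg
CDKN1A promoter: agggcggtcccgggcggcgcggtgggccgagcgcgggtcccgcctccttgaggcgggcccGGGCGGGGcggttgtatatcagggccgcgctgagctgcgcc
GADD45A promoter: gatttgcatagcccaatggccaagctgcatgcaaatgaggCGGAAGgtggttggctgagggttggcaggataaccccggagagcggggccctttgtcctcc
MDM2 internal promoter: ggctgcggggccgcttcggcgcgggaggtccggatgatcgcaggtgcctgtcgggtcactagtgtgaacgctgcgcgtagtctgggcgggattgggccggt

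In unscaled numbers each of the 7 genes had more peaks after TAM than after EtOH, and the direction flipped per 10000 peaks of a library at TP73, CDKN1A, SFN and BBC3 and with the same number of top peaks per library at TP73 and MDM2. BBC3 had the most peaks in TAM libraries, and it had 2 and 1 in the S100A8 EtOH libraries and 0, 1 and 3 in the S100A9 EtOH libraries. In TAM it had 7, 8 and 8 peaks with S100A8 and 7, 8 and 8 with S100A9. CDKN1A had 0 and 2 peaks with S100A8 in EtOH and 6, 5 and 6 in TAM, and with S100A9 it had 1, 0 and 2 in EtOH and 5, 6 and 7 in TAM. These genes, for apoptosis and for cell cycle arrest, had no TAM library as low as any EtOH library. The same held at 38.8% of all genes with a peak.

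Other genes of growth arrest are GADD45A and SFN. GADD45A had 1 peak in both S100A8 EtOH libraries and 0 in the 3 S100A9 EtOH libraries, against 4, 4 and 4 with S100A8 and 4, 4 and 6 with S100A9 in TAM. SFN had 2 peaks in both S100A8 EtOH libraries and 2, 0 and 0 in those of S100A9, against 4, 6 and 3 with S100A8 and 4, 5 and 8 with S100A9 in TAM. For MDM2, the inhibitor of p53, the EtOH libraries had 1 and 0 peaks with S100A8 and 1, 0 and 0 with S100A9. Its TAM libraries had 3, 3 and 2 peaks with S100A8 and 3, 3 and 4 with S100A9, with the lowest TAM mean of the 7 genes. At GADD45A, SFN and MDM2 no TAM library was as low as any EtOH library, as at 38.8% of all genes with a peak.

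**Figure D1:**
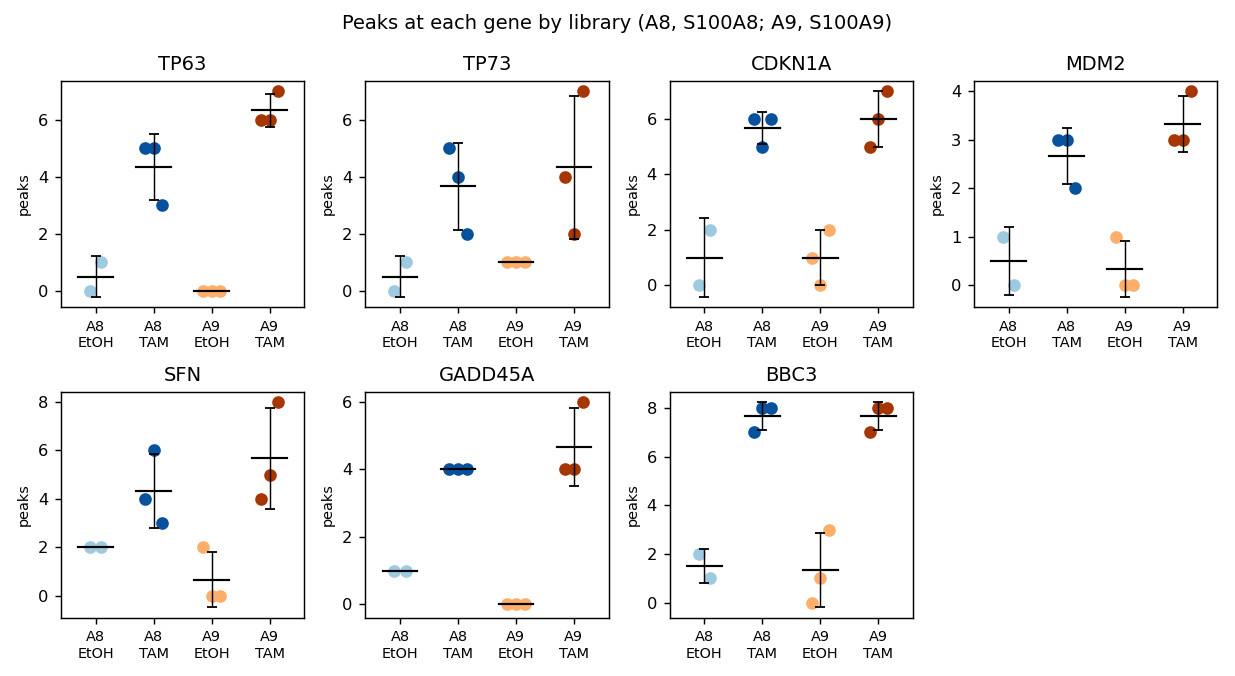
Number of peaks with q at most 1e-07 at each of the 7 genes (vertical axis, each gene on its own scale) in each library (points), by tagged protein and treatment, with the mean (line) and SD (bar) of 2 or 3 libraries. BBC3 has 7 or 8 peaks in the 6 TAM libraries, and MDM2 has 2 to 4.

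The paralogs of p53 also had separate ranges in the 2 treatments. TP63 had 0 and 1 peaks with S100A8 in EtOH and 0 in the 3 S100A9 EtOH libraries, against 5, 5 and 3 with S100A8 and 6, 6 and 7 with S100A9 in TAM. TP73 had 0 and 1 peaks with S100A8 and 1, 1 and 1 with S100A9 in EtOH, against 5, 4 and 2 with S100A8 and 4, 2 and 7 with S100A9 in TAM. At TP63 and TP73 no TAM library was as low as any EtOH library, as at 38.8% of all genes with a peak. At TP73 the ranges were 1 peak apart, as they were at MDM2 and SFN.

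The genes differ much in length and surroundings. In hg19 TP63 (ENSG00000073282) lies at chr3:189349178-189615065, TP73 (ENSG00000078900) at chr1:3569080-3652765 and CDKN1A (ENSG00000124762) at chr6:36644237-36655114. MDM2 (ENSG00000135679) lies at chr12:69201957-69239324 and BBC3 (ENSG00000105327) at chr19:47724079-47736023, on the minus strand. SFN (ENSG00000175793) lies at chr1:27189640-27190947 and GADD45A (ENSG00000116717) at chr1:68150884-68154017. Since TP63 is 265.888 kb long and SFN 1.308 kb, densities were compared over the body with both flanks. BBC3 had 6.85 TAM peaks per 100 kb, CDKN1A 5.26, SFN 4.94 and GADD45A 4.20, against 2.18 for MDM2, 2.18 for TP73 and 1.46 for TP63. The median over all genes with a peak was 1.82 per 100 kb.

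The treatment was tested with an exact permutation test, two-sided, of the treatment labels within each protein, over all 18764 genes with a peak. At BBC3 the mean rose from 1.5 ± 0.707 (SD, n = 2) to 7.67 ± 0.577 (SD, n = 3) with S100A8 and from 1.33 ± 1.53 to 7.67 ± 0.577 (SD, n = 3 each) with S100A9. At MDM2 it rose from 0.5 ± 0.707 (SD, n = 2) to 2.67 ± 0.577 (SD, n = 3) and from 0.333 ± 0.577 to 3.33 ± 0.577 (SD, n = 3 each). The TAM minus EtOH difference in mean peaks, averaged over the proteins and unscaled, was 6.25 at BBC3, 5.08 at TP63, 4.83 at CDKN1A, 3.83 at GADD45A, 3.67 at SFN, 3.25 at TP73 and 2.58 at MDM2. All 7 were called at an adjusted p of 0.0226 by this permutation test, whose unadjusted p of 0.01 is the smallest that 200 arrangements can give. MDM2 was not called with q at most 1e-10, nor TP73 with every deposited peak, and with peaks in the gene body only 0 of the 7 were called by this test and the difference at SFN was -0.25 (3984 genes at an unadjusted p under 0.05). Of all genes tested, 12246 (65.3%) were called higher in TAM and 0 lower. No overlap between TAM and EtOH libraries was seen at the 7 genes, and at 38.8% of all genes tested. The median difference was 3.83 over the 7 genes and 2.33 over all genes tested.

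With peaks scaled to the length of the lists, the direction changed at 4 of the 7 genes. Per 10000 peaks of a library, the 7 genes together held 10.8 to 17.4 peaks in EtOH libraries, with a median of 13.9, and 11.5 to 14.5 in TAM libraries, with a median of 13. On this scale the mean was lower in TAM at TP73, CDKN1A, SFN and BBC3 and higher at TP63, GADD45A and MDM2, and the exact permutation test called 0 of the 7 and 0 of all genes in either direction (3979 genes at an unadjusted p under 0.05). The difference on this scale was -1.36 at SFN, -0.866 at TP73, -0.775 at BBC3 and -0.0930 at CDKN1A. It was 1.41 at TP63, 0.478 at GADD45A and 0.0592 at MDM2. Its median over all genes tested was 0.0775, and the mean was lower in TAM at 44.4% of them. With the 1853 top peaks of each library, 0 of the 7 and 0 of all genes were called by the exact permutation test (148 genes at an unadjusted p under 0.05). Without S100A8 EtOH replicate 1 the unscaled differences ran from 2.83 at MDM2 to 6.5 at BBC3. Without S100A8 EtOH replicate 2 they ran from 2.33 at MDM2 to 6 at BBC3. With a single S100A8 EtOH library left, no gene was called by the unscaled test. In both cases the smallest p of the exact permutation test is 0.025.

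**Figure D2:**
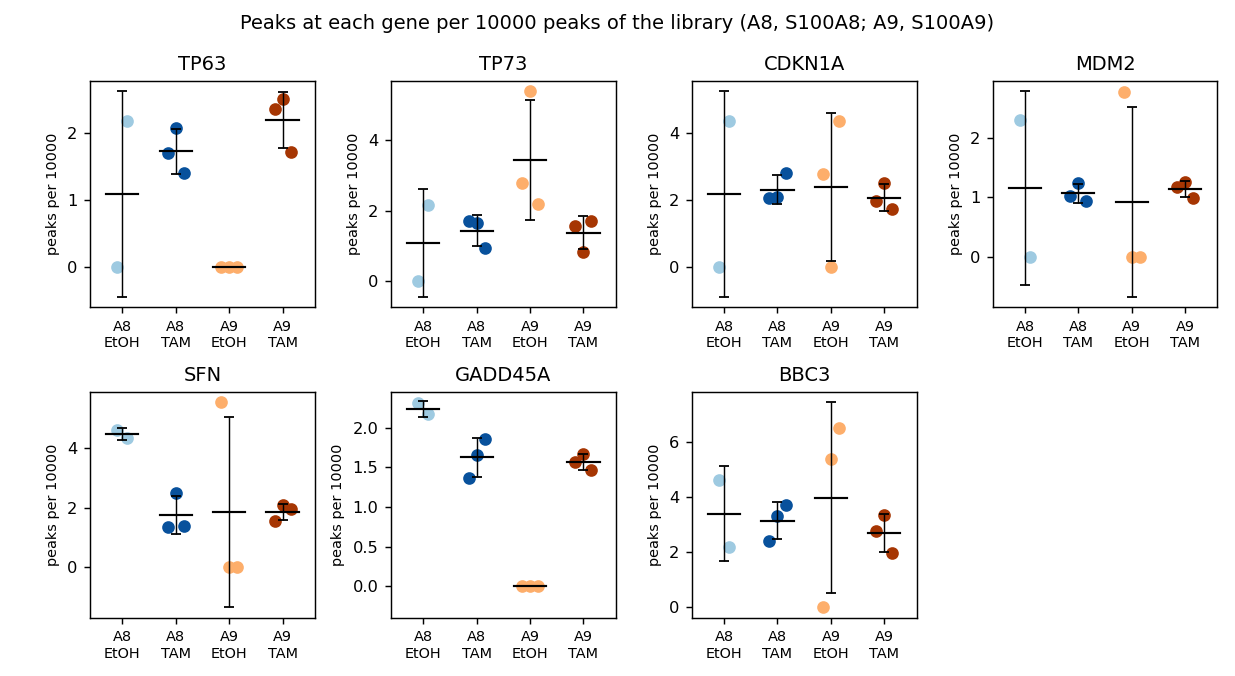
The same peaks per 10000 peaks of each library (vertical axis, each gene on its own scale), with the mean (line) and SD (bar) of 2 or 3 libraries per group. The EtOH libraries spread widely, since 1 peak weighs more in their short lists, and TAM lies below EtOH on average at TP73, CDKN1A, SFN and BBC3.

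No difference between S100A8 and S100A9 libraries was called at these genes. The S100A9 minus S100A8 difference in mean peaks, averaged over treatments and unscaled, ran from -0.167 at GADD45A to 0.75 at TP63, and the exact permutation test gave an adjusted p of 1 for each of the 7. Its sign changed per 10000 peaks at TP63, CDKN1A, MDM2 and BBC3. The same permutation test called 0 of 18764 genes (0%), with 130 genes at an unadjusted p under 0.05. The TAM difference was larger with S100A9 than with S100A8 by 2.67 peaks at SFN, 2.5 at TP63 and 1.67 at GADD45A, and by 0.167 at TP73 and at BBC3. With the same number of top peaks the value was -0.667 at TP63, 0.333 at SFN and 0.167 at GADD45A. Without S100A9 TAM replicate 3 it fell to 1.5 at SFN and 1 at GADD45A. At BBC3, TP73 and CDKN1A it turned negative without single libraries. It was -0.5 at BBC3 without S100A9 EtOH replicate 1 and -1.17 at TP73 without S100A9 TAM replicate 3. At CDKN1A it went from 0.333 to -0.667 without S100A8 EtOH replicate 2. The median of this value was 0.833 over the 7 genes and 0.667 over all genes tested, and it was not tested.

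Promoter peaks were found at 6 of the 7 genes. MDM2 had a promoter peak in 6 of 6 TAM libraries and 2 of 5 EtOH libraries, CDKN1A likewise in 6 of 6 and 2 of 5, and SFN in 6 of 6 and 1 of 5. GADD45A had one in 5 of 6 TAM libraries and 0 of 5 EtOH libraries, and BBC3 in 3 of 6 and 1 of 5. With every deposited peak, the TAM minus EtOH difference in the share of libraries fell from 0.583 to 0 at MDM2, from 0.583 to 0.25 at CDKN1A, from 0.833 to 0.167 at GADD45A and from 0.75 to 0.417 at SFN, and it rose from 0.333 to 0.417 at BBC3 and from 0 to 0.25 at TP73. A promoter peak in every TAM library was seen at 3 of the 7 genes and at 13.9% of all protein-coding genes. At least 2 TAM libraries had one at 6 of the 7 and at 52.9% of all genes, and at least 2 EtOH libraries had one at 3 of the 7 and at 13.2%.

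TP73 had a promoter peak in all 3 S100A9 EtOH libraries, including the one with the shortest list, and in 0 of the 2 S100A8 EtOH libraries. In TAM it had one in 1 of 3 S100A8 libraries and 2 of 3 S100A9 libraries. In S100A9 EtOH replicates 2 and 3 the summits lay at -160 and -30 bp from an internal start site, and in replicate 1 the summit lay 82 bp downstream of another start site. TP63 had no promoter peak in any of the 11 libraries. The exact permutation test of the promoter peak called 0 of 12274 genes (0%), with 2265 genes at an unadjusted p under 0.05, all higher in TAM. By this permutation test the adjusted p was 0.217 at SFN and at GADD45A, 0.392 at CDKN1A and at MDM2, 0.728 at BBC3 and 1 at TP73.

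The 41 sites fell into 6 at promoters of the 7 genes, 5 at promoters of neighbouring genes, 9 elsewhere in the gene bodies and 21 in the flanks. The 5 lay at the promoters of WRAP73 beside TP73, ZDHHC18 beside SFN, CCDC9 with 2 sites and INAFM1 beside BBC3, so part of the count of BBC3, SFN and TP73 is shared with these genes. Some flank sites also lay inside other protein-coding genes. They were in introns of GNG12 at GADD45A, SLC35E3 at MDM2, ZDHHC18 at SFN and CCDC27 at TP73, and in untranslated sequence of GPN2 at SFN. Of the 41 sites, 27 (65.9%) were called in no EtOH library, against 68.9% of all sites. All 6 TAM libraries called 9 (22%) of them, against 14.3% of all sites, and at least 2 EtOH libraries called 8 (19.5%), against 12.0%.

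**Figure D3:**
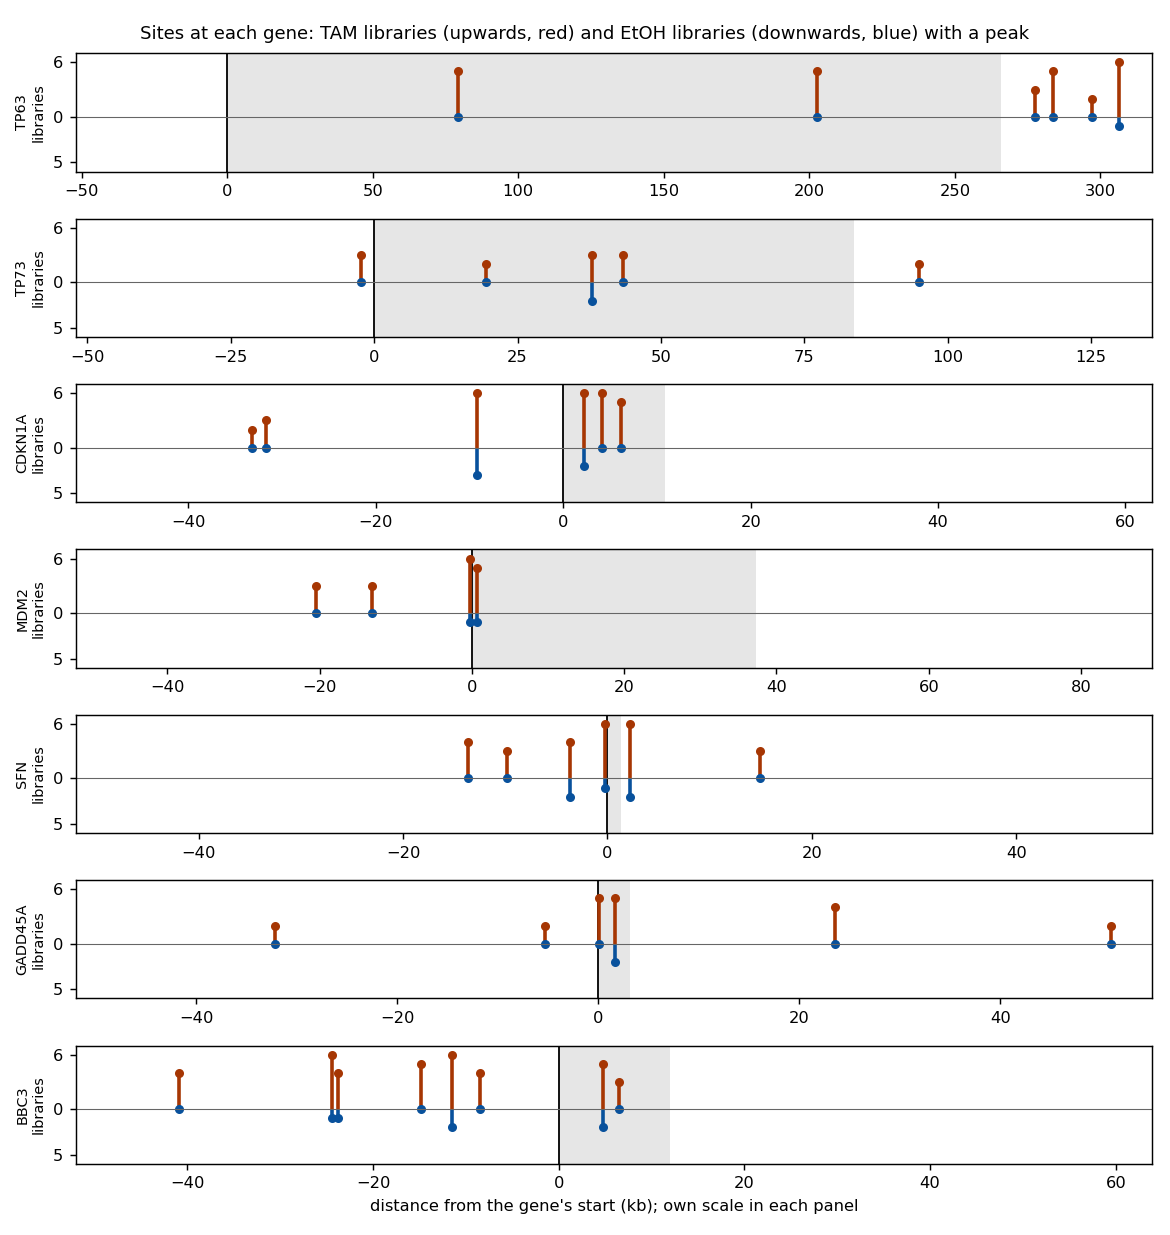
Position of the 41 sites relative to the start of each gene (horizontal axis in kb, gene body in grey, each panel on its own scale), with the number of TAM libraries (upwards, of 6) and EtOH libraries (downwards, of 5) that called each site. The MDM2 sites lie upstream and at the start of the gene, and 4 of the 6 TP63 sites lie past its end.

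The TP63 sites were all away from its start sites. There were 6, of which 2 lay in introns and 4 in intergenic sequence past the 3′ end. The site called in most libraries, chr3:189655284-189655981, was called in 6 of 6 TAM libraries and 1 of 5 EtOH libraries, with a fold enrichment over input of 4.76 to 11.6 in TAM (median 6.55) and of 8.62 in the S100A8 EtOH library that called it, within the TAM range. The intronic site with the p53 half-site was called in 5 of 6 TAM libraries at 5.28 fold or more with a median of 8.49, and the half-site lay at -3 bp from the summit. The intronic site with the AP-1 match was also called in 5 of 6, at 6.81 to 12.2 fold, and neither was called in EtOH, where S100A9 replicate 2 listed a peak of 6.78 fold at the site with the half-site, within the TAM folds but short of the q-value required. No other protein-coding gene lies within 50 kb of TP63.

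CDKN1A had 6 sites, from intergenic sequence upstream to the gene body. The promoter site, chr6:36646122-36647207, had its summit in untranslated exon sequence 6 bp past a start site. In TAM the fold enrichment of its promoter peaks was 10.7, 10.8 and 9.17 with S100A8 and 7.20, 9.90 and 7.75 with S100A9. Further peaks in the site lay 453 bp past a start site in S100A9 TAM replicate 1 (10.1 fold) and 454 bp past in replicate 3 (6.22 fold). In EtOH the promoter site was called in S100A8 replicate 2 at 8.17 fold and in S100A9 replicate 3 at 6.12 fold. The 6.12 lay below all TAM values and the 8.17 within them. Weaker peaks were listed there at 6.21 and 7.06 fold in S100A9 EtOH replicates 1 and 2. The upstream site with the p53 element, at -9228 bp from the start of the gene, was called in 9 of 11 libraries, more than any other site at the 7 genes. Its fold enrichment was 11.2, 5.66 and 13.5 with S100A8 and 8.71, 13.4 and 6.92 with S100A9 in TAM. In EtOH it was 6.55 in 1 S100A8 library and 6.38 and 9.04 in 2 S100A9 libraries, so the EtOH values lay within the range of the TAM values.

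The GADD45A intron held the site that ranked highest within its libraries. The site with the p53 element, chr1:68152062-68152691, had a mean percentile of 85.9 of fold enrichment within the libraries that called it. Its fold enrichment was 8.03 and 11.5 with S100A8 in EtOH and 13.5, 10.5 and 13.2 in TAM. With S100A9 it was 12.6 and 13.1 in TAM replicates 1 and 3, and it was not called in TAM replicate 2 or in EtOH. Weaker peaks were listed there at 6.42 and 6.25 fold in S100A9 EtOH replicates 1 and 2 and at 3.97 fold in TAM replicate 2. An intron of GADD45A is a classical location of a p53 response element. The GADD45A promoter site, chr1:68150590-68151367, was called at 16.1, 8.21 and 8.68 fold with S100A8 and at 15.6 and 11.5 fold with S100A9 in TAM, and in no EtOH library. Weaker peaks were listed at this promoter in S100A8 EtOH at 5.41 and 5.47 fold, in S100A9 EtOH replicates 1 and 2 at 5.56 and 5.30 fold and in S100A9 TAM replicate 2 at 2.70 fold.

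SFN and BBC3 had their most frequent sites outside the gene body. The SFN promoter site, chr1:27189278-27190202, was called in 6 of 6 TAM libraries at 5.71 to 14.3 fold and in 1 of 5 EtOH libraries at 7.49 fold. The SFN site at chr1:27191239-27192289, in intergenic sequence 2232 bp past the start site, was called in 8 of 11 libraries. It reached 13.8, 11.5 and 6.58 fold with S100A8 and 11.8, 21.6 and 13.5 fold with S100A9 in TAM, against 7.07 and 6.53 fold with S100A8 in EtOH. The BBC3 site at chr19:47747335-47747778 lay at -11498 bp from the start of the gene, in an exon of a non-coding gene, and was called in 8 of 11 libraries. It reached 10.6, 8.54 and 17.0 fold with S100A8 and 15.9, 17.6 and 9.52 fold with S100A9 in TAM, against 9.01 and 7.24 fold in S100A9 EtOH replicates 2 and 3. The SFN EtOH folds lay around the lowest TAM fold, and the BBC3 EtOH folds partly overlapped those of TAM.

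**Figure D4:**
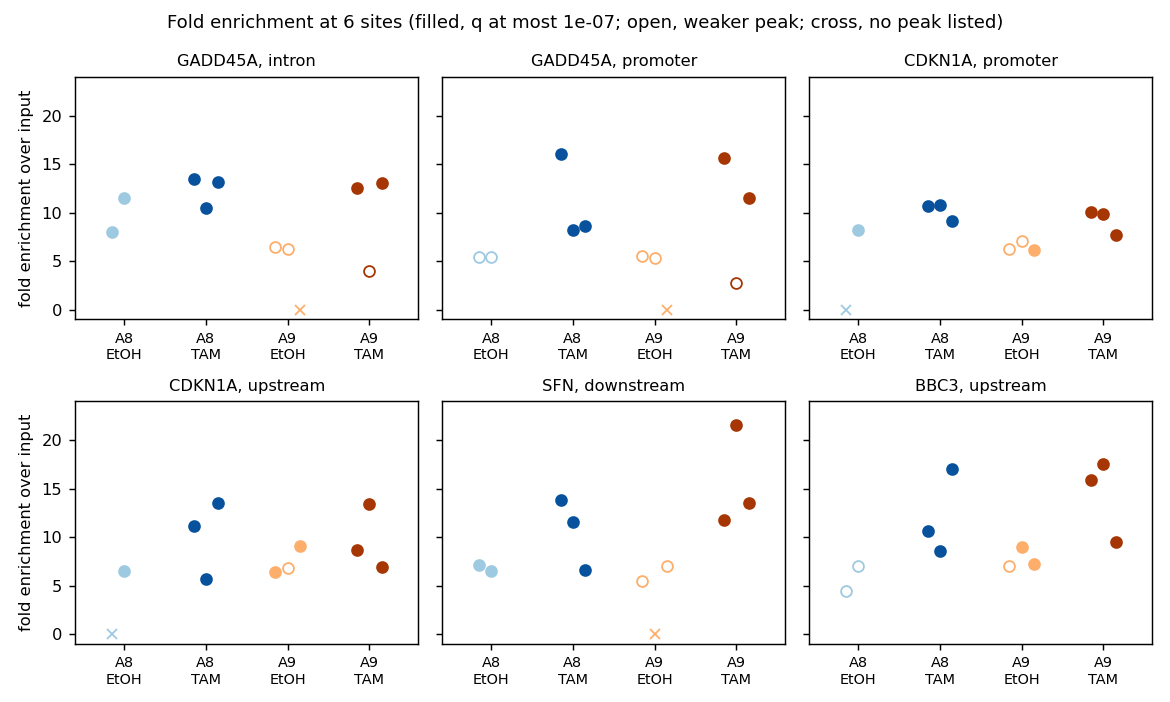
Fold enrichment over input (vertical axis) of the highest peak at 6 sites in the 11 libraries, by tagged protein and treatment. Filled points have q at most 1e-07, open points are weaker listed peaks, and a cross at 0 marks a library with no listed peak. At the CDKN1A upstream site the EtOH values of 6.38 to 9.04 lie within the TAM range of 5.66 to 13.5.

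MDM2 carried sites at both of its promoters. The upstream promoter site, chr12:69201615-69202213, lay in intergenic sequence at -192 bp and was called in 6 of 6 TAM libraries at 7.42 to 12.8 fold and in 1 of 5 EtOH libraries at 7.56 fold. The internal promoter site, chr12:69202469-69202977, was called in 5 of 6 TAM libraries at 6.77 to 14.7 fold and in 1 of 5 EtOH libraries at 9.22 fold. The internal promoter of MDM2 is the one known to respond to p53. The TP73 promoter site, chr1:3606993-3607262, lay at -99 bp from an internal start site and was called at 7.77 and 8.10 fold in S100A9 EtOH and at 5.58 to 9.11 fold in 3 TAM libraries.

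Motifs were counted within 100 bp of the summits on both strands. AP-1 (TGANTCA) was found at 17 of the 41 sites (41.5%) and at 30.9% of all 30322 sites. ETS (CGGAAG) was found at 9 (22%) and 13.3%, KLF/SP1 (CCCCGCCC) at 7 (17.1%) and 10.5%, and CEBP (TTGCNNAA) at 4 (9.76%) and 11.8%. The p53 half-site was found at 8 (19.5%) and 5.90%, and the CTCF consensus at 3 (7.32%) and 11.1%. All 8 sites with a p53 half-site lay outside promoters, where 30 of the 41 sites lay and where the share over all sites was 6.88%. A p53 element, 2 adjacent half-sites with up to 2 mismatches outside their cores, was sought after the data were seen and was found at 2 of the 41 sites (4.88%), in the GADD45A intron and upstream of CDKN1A, and at 0.481% of all sites. These shares are descriptions without a test, and a p53 element includes the letters of the half-site.

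Of 28 other p53 target genes, 20 were called higher in TAM (against 65.3% of all genes tested) and 0 lower in unscaled numbers, with a median difference of 3.08 peaks, while per 10000 peaks the mean was lower in TAM at 17 of them (against 44.4% of all genes tested) and the median was -0.0765. PHLDA3, an inhibitor of AKT signalling, had the largest unscaled difference, from a mean of 2.8 peaks in EtOH to 11.8 in TAM, and large differences were also seen at AEN, with 1.2 and 7.17, and at TNFRSF10B, a death receptor, with 0.6 and 6.33. The smallest differences were at ZMAT3, with 0.4 and 1.33 (adjusted p 0.304 by the exact permutation test), TP53INP1 and FDXR, each with 0 and 1.17, and PERP, with 0.2 and 1.5. Of the genes just named, PHLDA3, AEN and ZMAT3 had a lower mean in TAM per 10000 peaks. At its promoter GDF15 went the other way, with a peak in 3 of 5 EtOH and 1 of 6 TAM libraries and an adjusted p of 0.568 by the exact permutation test.

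Among 18 paralogs of the target genes, 14 were called higher in TAM (against 65.3% of all genes tested) and 0 lower in unscaled numbers, with a median difference of 3.58 peaks, while per 10000 peaks the mean was lower at 10 (against 44.4% of all genes tested) and the median was -0.374. MDM4 and PMAIP1 are in both lists. BAD, a BH3-only protein like BBC3, had the largest difference, from a mean of 1.2 peaks in EtOH to 14.5 in TAM. CDKN1C, a relative of CDKN1A, had 0.4 and 8.67, GADD45B had 1.6 and 9.83, and the 14-3-3 gene YWHAG had 1.6 and 9.17. The smallest were YWHAE with 0.6 and 1.83, YWHAB with 0 and 1.83, BID with 0.2 and 2.17 and GADD45G with 0.8 and 3, of which only YWHAB was called. Of the paralogs just named, GADD45B, YWHAG, YWHAE and GADD45G had a lower mean in TAM per 10000 peaks.

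The genes most like each of the 7 across the 11 libraries were named by Pearson r of log2(peaks + 1), with no p. For TP63 these were ECM1 (0.996) and PRRX2 (0.996), where the median over 10535 eligible genes was 0.867. For CDKN1A they were TMEM265 and PHKG2 (both 0.992, median 0.824), for MDM2 SLC8A3 (0.998) and TARM1 (0.994, median 0.807), and for BBC3 MT1B and PHLDA3 (both 0.979, median 0.820). For SFN they were CHRM4 and MDK (both 0.985, median 0.764), for GADD45A IL17REL and TTLL8 (both 0.998, median 0.855) and for TP73 SPOUT1 (0.971) and SYNE1 (0.970, median 0.777). The libraries of the 2 treatments differ in list length, and the part of this difference in the correlations was not tested.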

How the data were processed

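Per the methods of the study, the authors used Bowtie2 for alignment to hg19 and MACS2, with each library's own input as control, for peaks, and give no versions. One list per library was deposited. The deposited lists give each peak's fold enrichment over input, a ratio, and −log10 of its p-value and q-value, down to a q of 0.05. Here peaks with −log10 q of at least 7 on chromosomes 1 to 22 and X were assigned to protein-coding genes of GENCODE version 44 (GRCh37) by their summits, with start sites of protein-coding transcripts. No peak ran past a chromosome's end in the reference. P-values were adjusted by Benjamini-Hochberg over all genes with a peak, and adjusted p of at most 0.05 was a call. The permutation test was tested on simulated data. Regions overlapping by 1 bp were merged. The members and lists were chosen with earlier results of these data known. Named from the lists were up to 4 genes with the largest and the smallest difference and any with another direction, and, for likeness, genes at least 1 Mb away with at least 0.5 times as many peaks. The sites named were promoter sites and the site called in most libraries, and the intronic TP63 sites and the p53 element search were added after their values were seen. Python 3.11.15 with numpy 2.4.6 and pandas 2.3.3 was used, with matplotlib 3.10.9 for figures. Pol II and input samples were not analysed here. Other q-values, windows, scalings, left-out libraries and a replicate block were tried as alternatives.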

Additional observations from a re-analysis of the deposited data

Results flagged for a closer look

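GADD45A moved in opposite directions with the 2 proteins once peaks were scaled to the length of the list. Per 10000 peaks of the library it had 2.31 and 2.17 with S100A8 in EtOH and 1.36, 1.66 and 1.86 in TAM, so every S100A8 TAM library was lower. With S100A9 it had 0 in the 3 EtOH libraries and 1.57, 1.67 and 1.47 in TAM, a mean difference of 1.57, so every S100A9 TAM library was higher. The difference between the proteins was not tested. In unscaled numbers both proteins had more peaks in TAM, and each EtOH value rests on 0 or 1 peak.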

How the results depend on the processing

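The exact permutation test called 12246 genes higher in TAM, against a total of 5754 with q at most 1e-10 and 3646 with a 10 kb window. With the gene body only 0 were called (3984 at an unadjusted p under 0.05), per 10000 peaks of the library 0 (3979) and with the same number of top peaks 0 (148). The 7 genes of the p53 group were all called with the 10 kb window, and 0 of them with the gene body, per 10000 peaks and with the top peaks. MDM2 was not called with q at most 1e-10, nor TP73 with every deposited peak. Leaving out each library in turn gave 0 to 9549 genes and 0 to 7 of the 7, with 0 when S100A8 EtOH was a single library. With the replicate block 0 genes and 0 of the 7 were called, where the smallest p of the permutation test is 0.0625 (0 genes at an unadjusted p under 0.05). Whether same-numbered libraries are paired is not stated, and their deviations correlated at -0.0459 to 0.118. The TAM difference reversed with the top peaks at TP73 (-0.333) and MDM2 (-0.0833, and -0.0833 for its promoter), with the gene body only at SFN (-0.25), and per 10000 peaks at TP73 (-0.866), CDKN1A (-0.0930), SFN (-1.36) and BBC3 (-0.775). The cause was not tested. The larger TAM effect with S100A9, a median of 0.833, became 2 with every deposited peak (-2 at MDM2), 0.5 with q at most 1e-10, 0.333 by distance from the start site and 0.167 with the top peaks (-0.667 at TP63 and TP73). It was -1 at TP73 with q at most 1e-10. Without single libraries the median ran from 0.5 (without S100A8 TAM replicate 3 or S100A9 TAM replicate 3) to 1.33 (without either S100A8 EtOH library or S100A9 TAM replicate 2).

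The S100A9 minus S100A8 difference, never called, changed sign with every deposited peak at CDKN1A (-0.333), MDM2 (-0.333) and GADD45A (1.33), and at TP73 with q at most 1e-10 (-0.5). It did so with the top peaks at TP63 (-0.333) and MDM2 (-0.0833), and per 10000 peaks at TP63 (-0.309), CDKN1A (-0.0165), MDM2 (-0.0784) and BBC3 (0.0605). It also did so at MDM2 with the 10 kb window (-0.0833) and the gene body (-0.417), at GADD45A by distance from the start site (0.167), and at CDKN1A with the replicate block (-0.0833). Without single libraries it ran from -0.333 to 0.667 at CDKN1A, -0.5 to 0.25 at BBC3 and -0.0833 to 1.17 at TP73. The 41 sites became 73 with every deposited peak and 76 with 1 library enough, and within 50 bp AP-1 matches fell to 11 sites (against 23.2% of all sites), p53 half-sites to 5 (3.00%) and CTCF to 1 (9.30%). The promoter test was not run with peaks per 10000 or the gene body only. Depth is unknown, so whether a site missing from an EtOH list was detectable there is not known.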
